A study of Mus musculus with 5 samples.

Results

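The cells described here are proximal tubule S1 cells of the mouse kidney, chosen by the UMIs (unique molecular identifiers, which count captured RNA molecules) of a few genes. A barcode counted as S1 if it held at least 4 UMIs of Slc5a2 and Slc5a12 together, and more than 2 times as many of these as of Slc22a6 and Slc22a8. It also needed at least 200 genes, 2 to 50% mitochondrial UMIs, 0 UMIs of the leukocyte gene Ptprc and 0 of Slc12a1 and Slc12a3, which mark more distal tubule. The rule found 1465 S1 cells among 26237 barcodes, or 5.58% of them, and 12.3% of the 11900 barcodes that passed the gene and mitochondrial limits.

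The data were 5 droplet libraries of kidney cells, 1 from each mouse. All mice were C57BL/6j that had received pristane, an oil that induces a lupus-like disease, and no untreated mice were analysed here. Saline had been given to 2 mice (saline 1 and 2), and fecal microbiota transplants (FMT) from MRL/MpJ donor mice to 3 (FMT 1 to 3). Age, sex, dose and time of collection are not given in the labels, the letter codes in the titles differ between the groups, and a batch that follows those codes cannot be told apart from the treatment. In the S1 cells of all 5 libraries Xist was detected and the Y-linked genes Ddx3y, Eif2s3y, Kdm5d and Uty had 0 UMIs.

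The first stretch of the proximal tubule, S1, takes up most of the filtered glucose, amino acids, phosphate, bicarbonate and small proteins. Its apical sodium-glucose cotransporter SGLT2 is encoded by Slc5a2 and its lactate cotransporter by Slc5a12, and both genes chose the cells here. The proximal tubule is also the main renal site of vitamin D activation and catabolism, and it makes glucose from lactate and amino acids. Slc22a6 and Slc22a8 encode the organic anion transporters OAT1 and OAT3, which are best known from the following stretch.

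S1 cells numbered 315 and 178 in the saline mice and 454, 360 and 158 in the FMT mice. Their median depth lay between 3607 and 4888 UMIs per cell, and their UMIs summed to between 669371 and 2389473 per mouse, so FMT 3 gave the least precise values. The median mitochondrial share was 7.49 and 13.01% in the saline mice and 10.2, 8.13 and 8.86% in the FMT mice. Among barcodes with at least 4 UMIs of the 2 chosen genes, 1034 failed the ratio, 110 held Ptprc and 74 held Slc12a1 or Slc12a3. No barcode outside the S1 and comparison cells met a mirrored rule for the S3 segment (at least 4 UMIs of Slc7a13 and Cyp7b1). That rule rests on 2 genes, so it does not show that S3 cells were absent. The comparison cells were 4008 barcodes that met the same limits with Slc22a6 and Slc22a8 in excess. These Slc22a6/Slc22a8-high cells also carried genes of later proximal tubule, as described below, and are named by their rule.

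The label S1 was checked against 3 markers that the rule did not use. Slc34a1, which encodes the main renal phosphate cotransporter NaPi-IIa, stood at 6292 and 7090 CPM (UMIs per 1000000 UMIs of the S1 cells of that mouse) in saline 1 and 2, and at 7187, 4930 and 6086 CPM in FMT 1 to 3. Slc6a19, the neutral amino acid transporter B0AT1, stood at 635 and 668 CPM against 789, 667 and 662 CPM. Spp2, a secreted phosphoprotein used as an S1 marker, stood at 1591 and 1598 CPM against 2184, 1817 and 2138 CPM. The mean in the Slc22a6/Slc22a8-high cells was 3546, 112 and 436 CPM for these 3 genes, and S1 exceeded those cells in every mouse for each of them. The cells thus carried the markers of their label in all 5 mice.

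**Figure D1:**
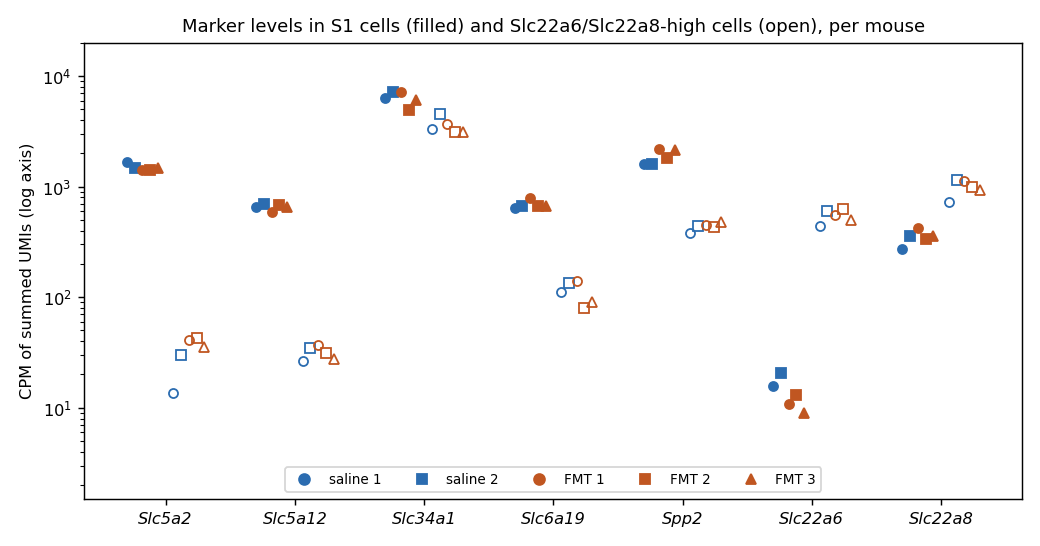
Each point is 1 mouse (blue, saline; orange, FMT), with the CPM of summed UMIs on a log axis for 5 S1 markers and the 2 organic anion transporter genes of the rule; filled points are S1 cells and open points are Slc22a6/Slc22a8-high cells. Slc34a1 was between 4930 and 7187 CPM in S1 cells, above every open point, and Slc22a8 remained at a mean of 349 CPM in S1 cells.

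Single S1 cells varied around these levels. In saline 1 the median S1 cell held 6 UMIs of Slc5a2 (quartiles 4 and 9) and 2 of Slc5a12 (quartiles 1 and 4), and in FMT 1 it held 6 (4 and 10) and 3 (1 and 4). Slc5a2 exceeded Slc5a12 in 82.5 and 83.7% of the S1 cells of saline 1 and 2, and in 80.4, 79.7 and 77.2% of those of FMT 1 to 3. Slc34a1 was present in every S1 cell before thinning. Thinned to 2000 UMIs per cell, at least 99.0% of S1 cells of each mouse still held it, against 47.6, 38.3, 63.3, 57.1 and 21.4% of B cells (saline 1, 2, FMT 1 to 3), a cell type that should lack it. B cell barcodes, with median depths of 3105 to 5634 UMIs, thus held some tubule RNA. Thinned in the same way, Slc5a2 was seen in 91.1 to 93.4% of S1 cells and in 7.14 to 13.6% of B cells. The S1 share follows from the rule, which chose the cells by this gene. FMT 3 had only 14 thinned B cells, so its B cell shares are imprecise.

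The threshold of 4 UMIs divided a continuous range. Barcodes just inside it, with exactly 4 UMIs, numbered 33, 15, 48, 45 and 22 (saline 1, 2, FMT 1 to 3) and had 4382, 2890, 4801, 3451 and 3594 CPM of Slc34a1. Barcodes just outside it, with 3 UMIs and all other conditions met, numbered 37, 20, 42, 53 and 28 and had 4958, 2005, 4222, 2415 and 3546 CPM. Cells with 10 or more UMIs had 5523 to 8203 CPM and also the greatest depth. In every mouse the barcodes with exactly 4 UMIs were lower in Slc34a1 than the S1 cells with 5 to 9 and with 10 or more. Slc6a19 and Spp2 were also lower than at 10 or more in every mouse, but not always lower than at 5 to 9. Slc6a19 was higher at exactly 4 UMIs in saline 1 (559 against 547 CPM) and FMT 3 (623 against 598 CPM). Spp2 was higher in saline 1 (1513 against 1376 CPM) and FMT 2 (1570 against 1453 CPM). In the other mice each of them was lower.

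Against the Slc22a6/Slc22a8-high cells, the S1 cells had a profile of their own, given here without a test because the rule chose the cells by this contrast. Of 2964 genes with a mean of at least 50 CPM in either population, 110 (3.71%) were over 1 log2 unit higher in S1 in all 5 mice. Another 105 (3.54%) were as much lower. Both counts used log2(CPM + 1). The phosphate cotransporter NaPi-IIc, Slc34a3, stood furthest above, with 154 ± 16.4 CPM in S1 (SD over the 5 mice) against 3.13 ± 1.26 CPM. It lay between 130 and 172 CPM in every S1 sample and between 1.90 and 4.83 CPM in every sample of the other cells.

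The genes high in S1 included several of amino acid exit at the basolateral side. Slc43a2, the transporter LAT4, had 323 ± 26.6 CPM in S1 against 28.2 ± 5.42 CPM, and Slc7a7, the light chain of the y+LAT1 exchanger, had 362 ± 37.9 against 51.7 ± 8.27 CPM. The heavy chain Slc3a2 and the partner light chain Slc7a8 had lower ends of their S1 excess at 1.31 and 1.46 log2 units. Dpep1, a brush border dipeptidase, had 122 ± 15.3 against 13.2 ± 4.47 CPM. Apical uptake of neutral amino acids was divided by gene, since Slc6a19 was higher in S1 while its relative Slc6a18 had 12.99 ± 5.32 CPM in S1 and 354 ± 59.5 CPM in the other cells.

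Lipid, glucuronidation and lysosomal genes were also among the 20 with the largest S1 excess. Fabp3, a fatty acid-binding protein, had 301 ± 33.2 CPM in S1 against 11.8 ± 3.85 CPM, and Ugt2b38, a UDP-glucuronosyltransferase, had 160 ± 18.9 against 7.60 ± 3.29 CPM. Hexa, the alpha subunit of lysosomal beta-hexosaminidase, had 80.7 ± 8.87 against 9.11 ± 0.935 CPM, and Agpat9, an acyltransferase of glycerolipid synthesis, had 81.8 ± 14.3 against 8.597 ± 0.945 CPM. The transcription factor genes Tbx2 and Etv1 had 87.8 ± 11.1 and 88.6 ± 23.9 CPM in S1 against 4.80 ± 2.48 and 12.8 ± 2.23 CPM. Aebp1, Chrna4 (a nicotinic receptor subunit), the non-coding Snhg11, Sectm1b, Clec2h (a C-type lectin), Srcin1, D630023F18Rik, Gm14964 and 8430408G22Rik filled the remaining places with Gc.

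Gc, the vitamin D-binding protein, was one of several vitamin D genes with S1 excess. It had 213 ± 32.3 CPM in S1 against 30.4 ± 5.18 CPM. Cyp24a1, the 24-hydroxylase that degrades active vitamin D, was between 1.32 and 4.03 log2 units higher in S1 in the 5 mice. Cyp27b1, the 1-alpha-hydroxylase that makes it, was between 2.17 and 3.61 higher. The receptors Vdr and Pth1r differed little, between 0.03 and 0.40 and between -0.28 and 0.16 log2 units. The transcription factor gene Maf, at 922 to 1125 CPM in S1 cells, was between 1.42 and 1.78 log2 units higher there. Gpx3, the plasma glutathione peroxidase that the kidney secretes, had 39530 ± 3840 CPM in S1 against 12885 ± 3639 CPM.

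Among the 10 genes furthest below in S1 were several transporter genes. Slc5a1, the high-affinity glucose cotransporter SGLT1, had 0.327 ± 0.451 CPM in S1 and 70.7 ± 11.4 CPM in the other cells. Slc5a8 (a lactate and short monocarboxylate cotransporter) had 1.51 ± 1.17 against 119 ± 19.97 CPM, and Slc5a10 (the mannose and fructose cotransporter SGLT5) had 3.08 ± 2.21 against 187 ± 41.8 CPM. The others of the 10 were Slc6a18, the glutamine transporter gene Slc38a3, Tmigd1, Dpys (dihydropyrimidinase), Cbr3 (a carbonyl reductase), the aspartic protease gene Napsa and Kap. Slc7a13 and Cyp7b1, markers of the last segment, had 0 UMIs in the S1 cells of every mouse. Slc7a13 was also held by at most 0.562% of the Slc22a6/Slc22a8-high cells of any mouse, so its absence does not set S1 apart from them. The endocytic receptor gene Lrp2 (megalin) differed by only -0.25 to 0.12 log2 units between the populations.

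**Figure D2:**
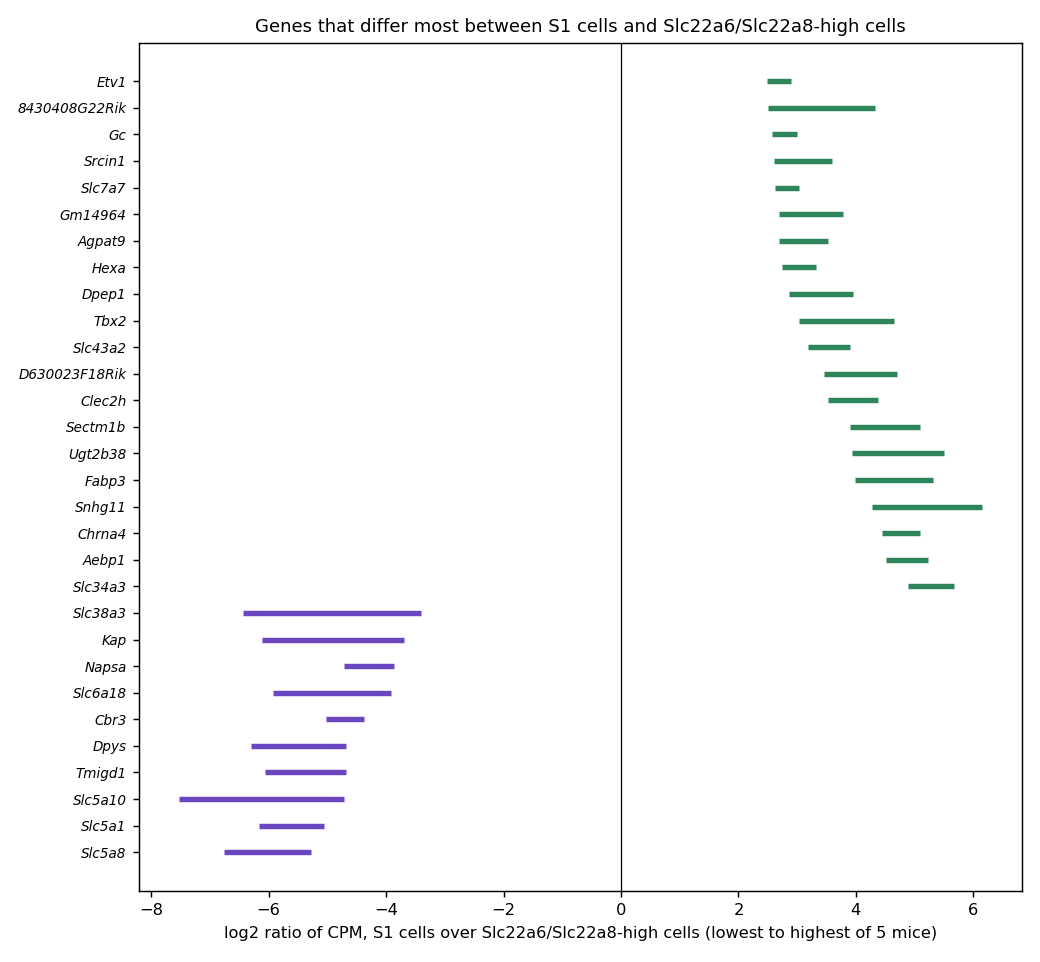
Each bar runs from the lowest to the highest of the 5 mice in the log2 ratio of CPM (plus 1) between S1 cells and Slc22a6/Slc22a8-high cells, for the 20 genes with the largest S1 excess (green) and the 10 with the largest S1 deficit (purple). Slc34a3 lay between 4.89 and 5.66 log2 units above, and Slc5a8 between 6.76 and 5.28 below.

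The share of S1 cells did not differ between the groups beyond the spread of the mice. S1 cells made up 13.5 and 9.25% of the kept barcodes in saline 1 and 2 and 11.2, 15.6 and 12.3% in FMT 1 to 3, so that the groups overlapped. The means were 11.4% ± 3.02 (SD, n = 2) and 13.05% ± 2.30 (SD, n = 3), with a two-sided exact permutation p of 0.6. Their share of the S1 and Slc22a6/Slc22a8-high cells together was 29.96% ± 3.88 against 27.1% ± 6.49, also with an exact permutation p of 0.6, and the smallest p that 2 against 3 mice allow is 0.1. Leaving out a mouse turned both directions, to -0.471 percentage points without saline 2 and to 0.425 without FMT 1.

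The main comparison asked which genes differed in S1 cells between FMT and saline mice. The UMIs of the S1 cells were summed per mouse and tested with the edgeR quasi-likelihood test, with Benjamini-Hochberg adjustment over all 9052 genes tested. In all, 23 genes (0.254%) passed an adjusted p of 0.05, of which 4 (0.0442%) were higher after FMT and 19 (0.21%) lower. The groups of these 23 did not overlap, and groups did not overlap either for 13% of the genes tested in the higher and 8.98% in the lower direction. An unadjusted p under 0.05 was reached by 589 genes (6.51%), and the median log2 fold change of all genes was -0.0035. The genes that fell included 4 of growth arrest and D-type cyclins, 4 steroid targets and a subunit of RNA polymerase III.

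Polr3e, a subunit of RNA polymerase III, had the smallest p. Its level was 492 and 447 CPM in the S1 cells of saline 1 and 2, and 161, 134 and 154 CPM in FMT 1 to 3. Both saline mice were thus more than 2 times as high as any FMT mouse, and the log2 fold change was -1.69 ± 0.15 (SE) with an edgeR adjusted p of 7.7e-05. The gene lies at chr7:120917744-120947432 on the plus strand (GENCODE M21, build GRCm38), 9604 bases from Cdr2 on the minus strand, which also fell, from 39.5 and 43.6 CPM to 21.3, 17.9 and 12.0 CPM (log2 -1.22 ± 0.24, edgeR adjusted p 0.0481). The call of Cdr2 was lost without saline 1, saline 2, FMT 2 or FMT 3.

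Nuak2, a kinase of the AMPK-related family, had 260 and 223 CPM in the saline mice and 79.5, 70.9 and 52.3 CPM in the FMT mice. All 3 FMT mice lay below both saline mice by a wide margin, with a log2 fold change of -1.83 ± 0.18 and an edgeR adjusted p of 8.1e-05. Noct, or nocturnin, a phosphatase of NADP(H) with a daily rhythm in many tissues, had 38.8 and 40.04 CPM against 7.11, 5.41 and 10.5 CPM (log2 -2.53 ± 0.29). Plk3, a stress-responsive polo-like kinase, had 122 and 73.0 CPM against 12.1, 7.04 and 28.4 CPM (log2 -2.95 ± 0.34). Noct, Cdr2 and E230001N04Rik (described below) were outside the rule for named genes and were added after their values were seen. Polr3e, Nuak2, Noct and E230001N04Rik passed under every one of the 17 alternatives, and Plk3 under all but DESeq2. DESeq2 did not call Sgk1, Ccnd1, Cdr2, C3, Erdr1, Sesn2, Slc11a2 and Iigp1 either.

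**Figure D3:**
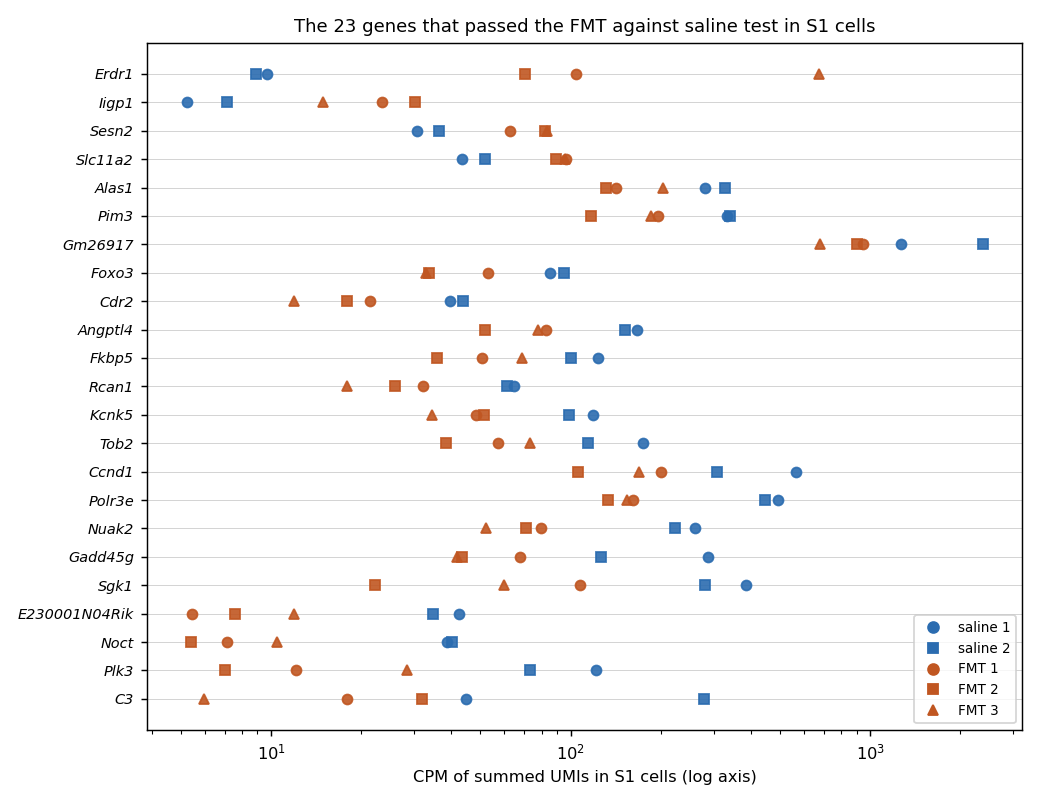
The 23 genes that passed the FMT against saline test in S1 cells, ordered by log2 fold change, with the CPM of each mouse on a log axis (blue, saline; orange, FMT). In each row the points of the groups are apart; Erdr1, at the top, ran from 8.90 CPM in saline 2 to 677 CPM in FMT 3, and C3, at the bottom, had 278 CPM in saline 2 and 44.8 CPM in saline 1.

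Growth arrest genes and D-type cyclins were read as a list of 26, of which 20 passed the filter on low counts. Of these, 4 fell and 1 rose, beside 0.21% and 0.0442% of all genes tested, and the list's median log2 fold change was 0.03 beside -0.0035 for all genes. The list was chosen with earlier results of these data known, so its counts are a description and not a test. Besides Nuak2, the genes that fell were Gadd45g, Ccnd1 and Tob2. Gadd45g, a stress-induced inhibitor of growth, had 287 and 126 CPM against 67.8, 43.3 and 41.8 CPM (log2 -2.02 ± 0.28, edgeR adjusted p 0.0031). Ccnd1, cyclin D1, which drives entry into the cell cycle, had 566 and 307 CPM against 200, 106 and 169 CPM (log2 -1.51 ± 0.25, edgeR adjusted p 0.016). Tob2, an antiproliferative protein, had 174 and 114 CPM against 57.3, 38.4 and 73.2 CPM. In all of these saline 1 was the highest mouse. Cdkn1a and Trp53 did not pass the test, with log2 fold changes of 0.03 ± 0.70 and -0.15 ± 0.24. The calls of Gadd45g, Ccnd1 and Tob2 were lost without saline 1, where their log2 values were -1.30, -0.995 and -1.12.

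Sesn2 was the list member that rose. It encodes sestrin 2, a stress-induced inhibitor of mTORC1, and had 30.6 and 36.5 CPM in the saline mice against 62.8, 82.3 and 83.7 CPM in the FMT mice (log2 1.12 ± 0.22, edgeR adjusted p 0.046). It no longer passed without either saline mouse, without FMT 2 or without FMT 3.

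Targets of glucocorticoids and mineralocorticoids made up another 4 of the 19 genes that fell. The list held 24 genes, of which 16 were tested. These 4 were Sgk1, Fkbp5, Angptl4 and Rcan1. Of the list 0 genes rose, and 14 of 16 fold changes were below 0, with a median of -0.66. Over all genes tested 0.21% fell and 0.0442% rose, 49.5% of fold changes were above 0 and the median was -0.0035. The list was chosen with earlier results of these data known, so this contrast is a description and not a test. Sgk1, the kinase that aldosterone and cortisol induce and that stimulates sodium transport, had 383 and 281 CPM in the saline mice against 108, 22.2 and 59.8 CPM in the FMT mice. The lowest saline mouse was more than 2 times as high as the highest FMT mouse. The log2 fold change was -2.40 ± 0.36 (edgeR adjusted p 0.0072). With 1 mouse left out it ranged from -3.24 without FMT 1 to -1.94 without FMT 2.

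Fkbp5, the co-chaperone FKBP51 of the glucocorticoid receptor, had 124 and 101 CPM against 50.6, 35.7 and 68.7 CPM (log2 -1.23 ± 0.23, edgeR adjusted p 0.033). It lies on chr17 on the minus strand, 5193 bases from E230001N04Rik on the plus strand, which had 42.5 and 34.7 CPM against 5.44, 7.58 and 12.0 CPM (log2 -2.45 ± 0.30). Angptl4, an inhibitor of lipoprotein lipase, had 167 and 151 CPM against 82.4, 52.0 and 77.7 CPM. Rcan1, an inhibitor of calcineurin, had 64.9 and 61.4 CPM against 32.2, 26.0 and 17.9 CPM. For both of these the groups lay clearly apart, with log2 values of -1.22 ± 0.20 and -1.26 ± 0.22.

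Not all members of the steroid list passed, although Tsc22d3 and Per1 were lower in every FMT mouse than in both saline mice. Tsc22d3 (GILZ) had 88.8 and 67.6 CPM against 66.1, 25.4 and 55.3 CPM, and Per1 had 70.1 and 56.9 CPM against 24.7, 20.02 and 50.8 CPM; neither passed the test, with edgeR adjusted p of 0.657 and 0.148. Pck1, the rate-limiting enzyme of gluconeogenesis, had a log2 fold change of 0.29 ± 0.22, and the receptor gene Nr3c1 had 0.23 ± 0.20. The calls of Sgk1, Fkbp5, Angptl4 and Rcan1 were lost without saline 1, the last 3 also without saline 2, and Fkbp5 also without FMT 2. Hormone levels were not among the data, and a difference in time of collection was not tested.

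The promoters of Sgk1, Gadd45g and Polr3e are shown because these genes fell together and because each window held a motif searched for in all promoters. All are 300-base RefSeq windows of build GRCm38.p6 on the plus strand, with 250 bases before the start site, at chr10:21993640-21993939 for Sgk1 (1 of several start sites of that gene), chr13:51846425-51846724 for Gadd45g and chr7:120917528-120917827 for Polr3e. Capitals mark the full glucocorticoid response element in Sgk1 (AGAACA, any 3 bases, TGTTCT), and CACGTG, the E-box that clock and other bHLH factors bind, in Gadd45g and Polr3e.

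Sgk1: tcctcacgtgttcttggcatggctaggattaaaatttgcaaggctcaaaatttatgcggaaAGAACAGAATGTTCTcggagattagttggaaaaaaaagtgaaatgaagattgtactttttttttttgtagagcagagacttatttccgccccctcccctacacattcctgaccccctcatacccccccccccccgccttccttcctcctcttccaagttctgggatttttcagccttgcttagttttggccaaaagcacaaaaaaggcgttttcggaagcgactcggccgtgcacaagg

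Gadd45g: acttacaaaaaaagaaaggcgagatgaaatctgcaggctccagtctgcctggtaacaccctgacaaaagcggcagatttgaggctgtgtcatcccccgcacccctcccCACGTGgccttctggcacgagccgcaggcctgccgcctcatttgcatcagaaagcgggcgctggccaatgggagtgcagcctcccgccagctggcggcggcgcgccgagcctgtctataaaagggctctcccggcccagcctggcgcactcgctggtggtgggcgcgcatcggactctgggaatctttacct

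Polr3e: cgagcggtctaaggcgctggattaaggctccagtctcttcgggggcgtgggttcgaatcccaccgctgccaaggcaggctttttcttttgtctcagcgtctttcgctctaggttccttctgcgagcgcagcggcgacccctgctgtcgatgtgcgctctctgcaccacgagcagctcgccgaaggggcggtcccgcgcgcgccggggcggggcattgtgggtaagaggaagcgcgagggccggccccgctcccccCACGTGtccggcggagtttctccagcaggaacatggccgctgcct

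Both strands were searched. The response element was in 0.0111% of 27025 genes and, of 15 genes that fell and had a window, in Sgk1. In Sgk1 it overlaps 2 matches of its own core TGTTCT. That core was in 21.3% of all genes and in 1 of the 15, Sgk1, so Fkbp5 and Rcan1 had no match to it. The E-box was in 8.09% of all genes and in 6 of the 15, namely Sgk1, Gadd45g, Polr3e, Kcnk5, Rcan1 and Fkbp5, where a gene with several start sites had several windows to match. Other motifs were searched for as well. TGACGTNA (N, any base) was in 3.36% of all genes and in 3 of the 15, namely Plk3, Rcan1 and E230001N04Rik. TATAAA was in 15.7% and in 3 of the 15, and GTAAACA in 4.05% and in 0 of the 15. These are descriptions of letters, with no test.

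Besides these, 6 other genes fell: Kcnk5, Foxo3, Pim3, Alas1, Gm26917 and C3. Kcnk5, the potassium channel TASK-2 of the proximal tubule, had 119 and 98.8 CPM against 48.1, 51.4 and 34.4 CPM (log2 -1.28 ± 0.19, edgeR adjusted p 0.0062). Foxo3, a transcription factor of stress and starvation responses, had 85.1 and 95.2 CPM against 53.1, 33.6 and 32.9 CPM. The other calls, named after their values were seen, were Pim3, a serine/threonine kinase (log2 -1.07 ± 0.20), Alas1, the first enzyme of heme synthesis (-1.01 ± 0.19), and the predicted gene Gm26917 (-1.15 ± 0.22). The call of Gm26917 was lost with the replicate number of the labels as a block and with no lower limit on mitochondrial UMIs. It was also lost with more than 4 times the UMIs of Slc22a6 and Slc22a8. Kcnk5 lost its call without saline 1 (log2 -1.13), Foxo3 and Pim3 without either saline mouse, FMT 2 or FMT 3, Alas1 without either saline mouse or FMT 2, and Gm26917 without saline 2 (log2 -0.62) or FMT 3.

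C3, complement component 3, had the largest fall but rested on 1 mouse. It had 44.8 CPM in saline 1, 278 CPM in saline 2 and 18.0, 31.9 and 5.98 CPM in the FMT mice. The log2 fold change was -2.96 ± 0.53 (edgeR adjusted p 0.031), and without saline 2 it was -1.13 and no longer passed, nor did it without FMT 3 (-2.75). Without saline 1 it was -3.76. The single highest barcode of each library gave 27.0% of its UMIs, and without barcodes that held any immune marker UMI the value was -0.66.

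Erdr1 rose most. It had 9.70 and 8.90 CPM in the saline mice and 104, 70.4 and 677 CPM in the FMT mice, so that FMT 3 stood far above the rest (log2 4.79 ± 0.93, edgeR adjusted p 0.046). The Slc22a6/Slc22a8-high cells had nearly the same values in each mouse, with 8.52, 6.11, 100, 61.9 and 698 CPM. In S1 cells its log2 value was 3.17 without FMT 3, and it no longer passed without either saline mouse. Slc11a2, the iron transporter DMT1, had 43.3 and 51.6 CPM against 96.3, 89.3 and 95.6 CPM, and did not pass without either saline mouse, FMT 2 or FMT 3. Iigp1, an interferon-inducible GTPase, had 5.22 and 7.12 CPM against 23.4, 30.3 and 14.9 CPM, and 32.8% of its UMIs came from the highest barcodes; its call was lost without either saline mouse or FMT 2. 8430408G22Rik, whose RefSeq symbol is Depp1, came next in p and did not pass in edgeR (adjusted p 0.0539), at 29.8 and 25.8 CPM against 51.1, 146 and 163 CPM.

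The lists of the tubule's own functions are described by their counts and medians. Of all tested genes 0.254% were called. Lists of this size are too small for a count of 0 or 1 to be read against that share. The test recovered 24.5% of 2-fold changes simulated with the same spread among mice (dispersion 0.05) for every gene. Thus 0 calls do not show that a list was unchanged. Of 26 genes of endocytosis, the route by which S1 takes up filtered protein, all were tested and 0 passed, with a median log2 fold change of 0.05. Lrp2 had -0.00 ± 0.16 and Cubn -0.02 ± 0.15. Of 16 tested amino acid transporter genes, 21 of sodium, acid-base and water transport and 5 of glucose and sugar transport outside the rule, 0 passed, with medians of 0.05, 0.02 and -0.09. Oxidative phosphorylation, with 69 genes tested, had a median of 0.00 and a range of -0.31 to 0.25. Gluconeogenesis and ammonia production had 0 calls of 23, at a median of -0.06. Fatty acid oxidation had Angptl4 among 33 tested (median 0.09), and the transcription factors had Foxo3 among 22 (median -0.03). Organic ion transport, immediate early, antioxidant and heat shock genes had 0 calls of 15, 16, 28 and 13, with medians of 0.16, 0.29, 0.03 and 0.04.

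The immune-related lists were likewise too small for their counts to be read against the 0.254% of all genes. Of 24 tested interferon response genes, Iigp1 passed and the median was 0.05, and 0 of 12 MHC class I and 0 of 6 MHC class II genes passed. The list of purine and inosine metabolism, read because inosine stands in the series title, had 0 calls of 23 tested and a range of -0.29 to 0.47. Of the 30 injury and repair genes 12 were tested and C3 passed, with a median of 0.03 and a range of -2.96 to 1.86. The list summed to 1400 and 2223 CPM in the saline mice and 1805, 2035 and 1543 CPM in the FMT mice. The injury marker Havcr1 (KIM-1) had 0 UMIs in the S1 cells of every mouse, while Lcn2 was at most 4.48 CPM.

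**Figure D4:**
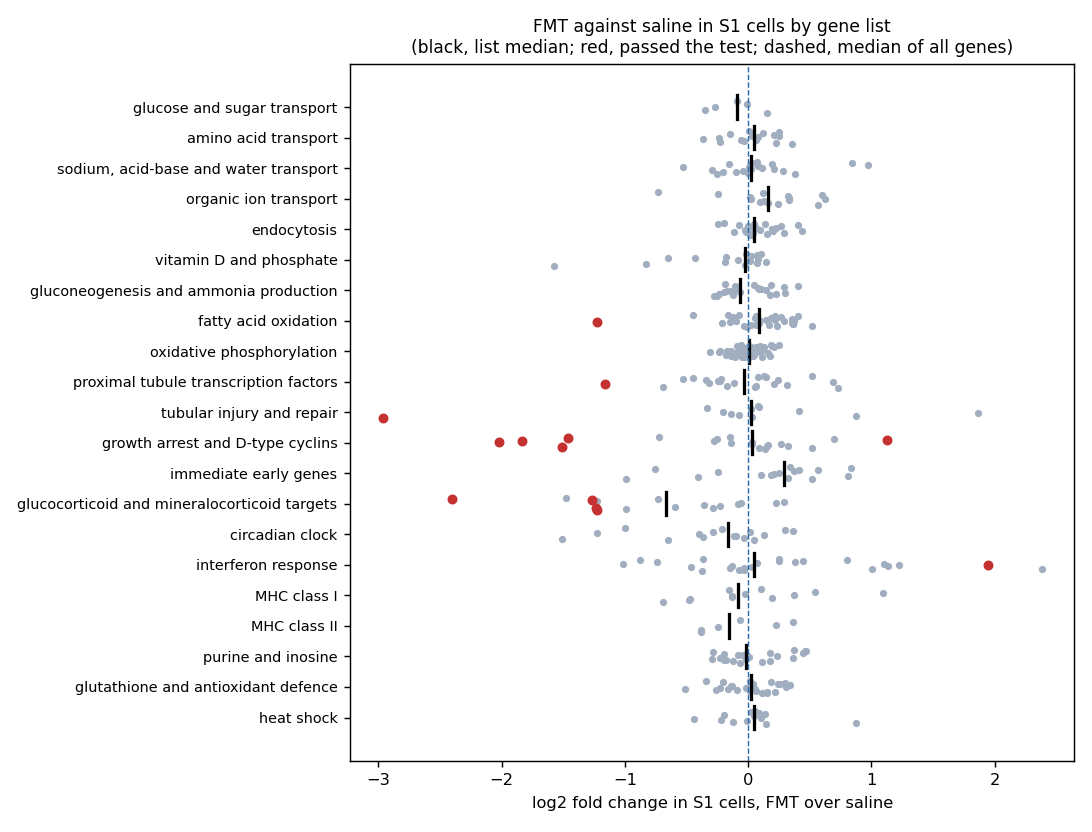
Each dot is a gene tested in S1 cells, placed by its log2 fold change of FMT over saline and by list; black bars are list medians, red dots passed the test, and the dashed line is the median of all genes. The list of glucocorticoid and mineralocorticoid targets has the lowest median, -0.66, and its 4 red dots lie between -2.40 and -1.22. The lists were chosen with earlier results of these data known.

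No vitamin D gene passed the test, although several differed widely between mice. Cyp24a1 had 620 and 418 CPM in the saline mice and 329, 113 and 71.7 CPM in the FMT mice. The groups did not overlap, but the 3 FMT mice were spread widely, and the log2 fold change of -1.58 ± 0.37 did not pass (edgeR adjusted p 0.148). At 2000 UMIs per cell, Cyp24a1 was seen in 52.1 and 43.3% of S1 cells of the saline mice and in 33.3, 17.6 and 11.0% of those of the FMT mice, against 2.26 to 6.10% of B cells in the 4 mice other than FMT 3. Without thinning the S1 shares were 67.9, 63.5, 50.4, 26.4 and 19.0%. Cyp27b1 had 165 and 125 CPM against 120, 23.3 and 117 CPM, where FMT 2 alone was low (log2 -0.83 ± 0.41, edgeR adjusted p 0.78). Of the 16 tested genes of vitamin D and phosphate 0 passed, at a median of -0.02, and Slc34a3 had 153 and 149 CPM against 166, 172 and 130 CPM. S100g, a vitamin D-induced calcium-binding protein picked out after its values were seen, was higher in all FMT mice, with 145 and 165 CPM against 277, 312 and 236 CPM, and did not pass either (edgeR adjusted p 0.0773).

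Several clock genes were lowest in FMT 2. Per2, a repressor of the clock, had 45.5 and 40.04 CPM in the saline mice, 55.7 and 52.3 CPM in FMT 1 and 3, and 5.95 CPM in FMT 2. Ciart, another repressor, had 35.8 and 30.3 CPM against 15.1, 1.08 and 28.4 CPM, and Usp2, a rhythmic deubiquitinase, had 232 and 224 CPM against 160, 56.8 and 139 CPM. FMT 2 was the lowest mouse for each of these genes and for Sgk1, Fkbp5, Per1 and Cyp27b1. Of the 16 clock genes tested 0 passed, at a median of -0.16. Without FMT 2, 18 genes were called in S1 cells, 15 of them among the 23, and Sgk1 kept its call.

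**Figure D5:**
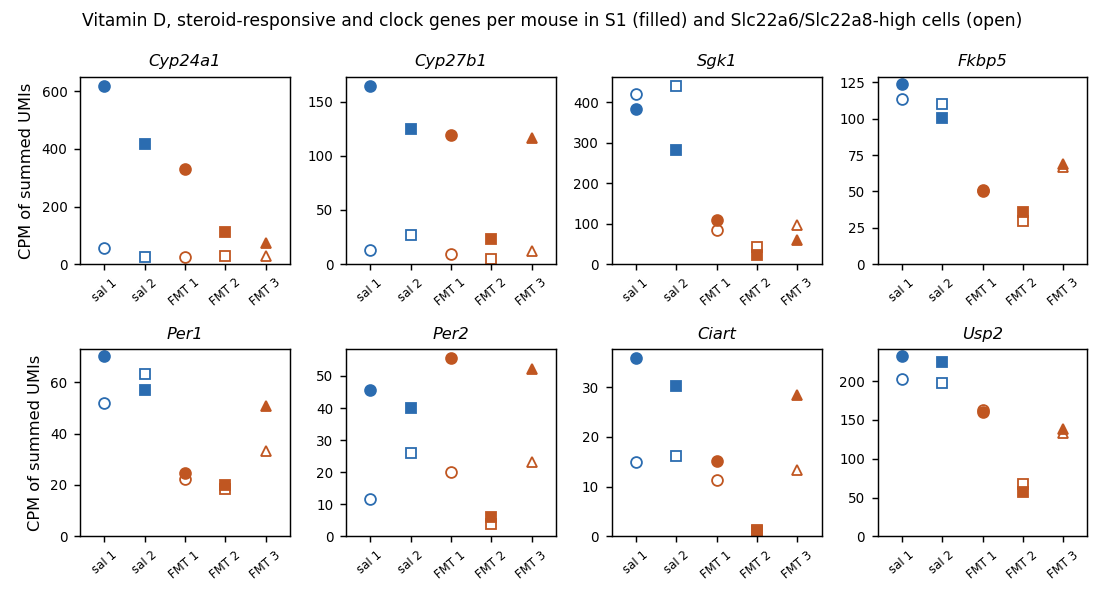
CPM of summed UMIs for 8 genes of vitamin D metabolism, steroid response and the clock in each mouse (blue, saline; orange, FMT), with S1 cells filled and Slc22a6/Slc22a8-high cells open. Per2 in S1 cells was 5.95 CPM in FMT 2 and 40.04 CPM or more in the others, and Cyp24a1, which did not pass the test, was 620 and 418 CPM in the saline mice and 71.7 to 329 CPM in the FMT mice.

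The S1 barcodes also held RNA of other cell types. A UMI of any immune marker was held by 73.0 and 60.1% of the S1 barcodes of the saline mice and by 40.1, 36.7 and 58.9% of those of the FMT mice, a difference that was not tested. The summed B cell, neutrophil and myeloid markers overlapped between the groups, and 0 of the 3, 4 and 2 genes of these lists that were tested passed. The 7 B cell markers summed to 97.7 and 274 CPM against 229, 145 and 70.2 CPM, with all 7 detected. The 8 neutrophil markers summed to 140 and 30.3 CPM against 99.2, 221 and 117 CPM, again with all detected, and the 9 myeloid markers to 85.8 and 56.0 against 58.2, 62.2 and 52.3 CPM. T and NK cell markers summed to at most 20.5 and 5.41 CPM, with 3 of the 5 NK markers at 0. Podocyte and endothelial markers were at most 2.71 and 4.48 CPM, and thick ascending limb markers at most 17.8 CPM. Distal convoluted tubule, principal and intercalated cell markers summed to at most 85.8, 50.6 and 106 CPM. Without the barcodes that held an immune UMI, 21 of 4606 genes tested were called, 15 of them among the 23, and Iigp1 was not tested. Of the 7 genes then not called, Fkbp5, Foxo3 and Cdr2 had log2 values of -1.25, -1.19 and -1.62, no smaller in size than with all S1 cells. Sesn2, Slc11a2 and Rcan1 had 1.06, 0.78 and -0.96, and C3 had -0.66 in place of -2.96.

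The effect of FMT was compared between S1 cells and Slc22a6/Slc22a8-high cells of the same mice with an interaction term in edgeR. Of 10539 genes, 3 (0.0285%) passed an adjusted p of 0.05, namely C3, S100a9 and Neat1, and 718 (6.81%) had an unadjusted p under 0.05. For the genes that fell in S1 cells, apart from C3, the difference between the populations did not pass. Polr3e changed by -1.69 ± 0.15 log2 units in S1 cells and by -1.26 ± 0.23 in the other cells. Sgk1 changed by -2.40 ± 0.36 and -2.54 ± 0.27, and Nuak2 by -1.83 ± 0.18 and -1.64 ± 0.21. In edgeR on the other cells alone, Polr3e, Sgk1, Nuak2, Plk3, Gadd45g, Ccnd1, Tob2 and Cdr2 also passed an adjusted p of 0.05. The remaining genes that fell in S1 cells did not pass there. Among the calls that rose, only Erdr1 passed there. The test recovered 64.5% of 4-fold and 0% of 2-fold differences simulated with the same dispersion of 0.05 for every gene. A gene below the threshold may thus still differ between the populations.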

How the data were processed

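The authors deposited raw UMI counts per gene and barcode, which were used as deposited. Per the submitters' processing notes the reads were processed with Cell Ranger 2.1.1 on mm10, whereas version 4.0.0 stands in the matrix headers, and which of them applies is not settled. The labels describe 10x libraries, but their extraction text names a total RNA kit. Each of the 5 libraries lists the same 27998 genes, of which 27645 were found in GENCODE M21. Whether counting used strand is not stated there.

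S1 and comparison barcodes were chosen by the stated rules. Doublets were not removed: Scrublet scores (scanpy 1.11.5) entered as an alternative, and 21 S1 barcodes had the highest scores. Libraries shared 3 to 12 barcodes, and every pair of them differed by more than counting noise (chi-square per gene at least 2.46). The lower mitochondrial limit left out 10691 barcodes. UMIs were summed per mouse and tested in R 4.3.3 with edgeR 4.0.16 (quasi-likelihood test, TMM, low counts filtered by group). The genes of the rule and the mitochondrial genes were not counted as calls. The edgeR p-values rest on counting noise and on a spread among the mice that is estimated with information shared across genes. They are thus not a measure of each gene's own spread among the mice. Each SE of a fold change is the size of the log2 value divided by the square root of the F statistic. Intervals of shares are exact 95% binomial ones that cover counting error only. The test was tested on simulated data: in the S1 comparison 97% of 4-fold and 24.5% of 2-fold changes were recovered. The simulation gave every gene the same dispersion, 0.05, and changed only genes above a minimum mean count. Its rates thus do not hold for genes with a wider spread or fewer UMIs. Alternatives were other scaling, DESeq2 1.42.0, filters, thresholds, doublets and left-out mice. Python 3.11.15, numpy 2.4.6, pandas 2.3.3 and scipy 1.17.1 were used.

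The S1 cells, gene lists and rules were chosen with earlier results of these data known. Named genes were up to 10 calls per direction ranked by fold change (mean CPM of 30 or more, groups apart, no predicted models). Up to 4 calls of each list were named. Where fewer than 5 genes were called in a direction, the 5 smallest p-values were given. For the profile, the 20 genes with the largest S1 excess and the 10 with the largest deficit were named. They were ranked by the mouse with the smallest difference and had a mean of at least 50 CPM in the population where they were high. Members of the transport, endocytosis, vitamin D, gluconeogenesis and transcription factor lists could also be named. Other names were chosen after values were seen.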

Additional observations from a re-analysis of the deposited data

Results flagged for a closer look

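Genes of the segment comparison were the results for which the FMT effect differed between S1 cells and Slc22a6/Slc22a8-high cells by a test of the difference itself. For S100a9, a calcium-binding protein of neutrophils, the effect was 3.07 ± 0.49 log2 units higher in S1 cells (edgeR adjusted p 0.0081). S1 cells had 61.2 and 14.2 CPM in the saline mice and 33.1, 156 and 67.2 CPM in the FMT mice, while the other cells had 37.6 and 24.2 against 1.15, 8.97 and 27.9 CPM. The highest barcode of each library gave 62.7% of its UMIs in S1 cells, the summed neutrophil markers were highest in FMT 2 at 221 CPM, and their part in the result was not tested. The call was lost without saline 1 (log2 4.004), without saline 2 (2.68) and with DESeq2 (3.45), and without FMT 3 the value was 4.07.

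For Neat1, a nuclear non-coding RNA, the effect was 0.92 ± 0.16 higher in S1 cells (edgeR adjusted p 0.0125). S1 cells had 720 and 917 CPM against 864, 1965 and 1044 CPM, so that FMT 2 stood above the rest, and the other cells had 359 and 586 against 236, 501 and 391 CPM. Without FMT 2 it was 0.79 and did not pass, nor did it without saline 2 (0.80), without FMT 1 (0.88) or with at least 8 UMIs for both populations (0.81).

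For C3 the difference was -2.30 ± 0.38 (edgeR adjusted p 0.0081), with -2.96 ± 0.53 in S1 cells and -0.50 ± 0.25 in the other cells. Without saline 2 it was -0.96 and did not pass, nor did it without FMT 3 (-2.19) or with DESeq2 (-2.29). Without saline 1 it was -3.08.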

How the results depend on the processing

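Of 431 values of named genes under alternatives, 336 kept direction and side of the threshold, 86 no longer passed, 9 passed newly and 0 reversed. Polr3e, Nuak2, Noct and E230001N04Rik passed under all 17. The 23 calls between FMT and saline became 92 with no low count filter (14750 genes tested) and 9 to 42 without 1 mouse: 9 without saline 1 and 10 without saline 2, of which 7 and 10 were among the 23, and 42 without FMT 1. DESeq2 called 16, of which 14 were among the 23, and no lower limit on mitochondrial UMIs, added after the data were seen, gave 25. The 3 calls of the interaction became 1 with DESeq2, 19 with no low count filter, and 0 to 16 without 1 mouse: 0 without saline 2 in edgeR, where 605 genes had an unadjusted p under 0.05, 16 without saline 1 and 9 without FMT 1. The difference in S1 share of kept barcodes (1.67 percentage points) ranged from -0.471 to 3.80 without 1 mouse, and that of the S1 and Slc22a6/Slc22a8-high cells (-2.84) from -6.06 to 0.425; the cause was not tested. The first was 0.150 with more than 4 times the UMIs of Slc22a6 and Slc22a8, 0.474 with at least 8 UMIs and 0.648 with barcodes thinned to 2000 UMIs, and the second was -4.04, -6.05 and -8.25. With the replicate number of the labels as a replicate block, 50 genes were called, 21 of them among the 23; the 2 same-numbered pairs had correlations of -0.17 and -0.01, so the numbers do not show pairing. With 2 saline mice, each decides calls, and FMT 3 has the fewest UMIs.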
